A study of Mus musculus with 12 samples.

Results

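The mitochondrial ribosomal protein genes, with symbols that begin Mrpl for the large and Mrps for the small ribosomal subunit, were followed through the LPS response of RAW264.7 cells, a mouse macrophage line. All rows of the deposited table whose symbol is Mrpl or Mrps, a number and at most 1 letter were taken, and these are 78 of the table's 25192 genes. Each of the 78 passed the filter on low counts and was tested. The symbol alone chose them, and 77 encode ribosome subunits. Mrps36 is the exception, since its protein is now known as a component of the 2-oxoglutarate dehydrogenase complex. Mrps18a and Mrps30 carry small-subunit symbols, but their proteins sit in the large subunit and were grouped there. That gives 51 large-subunit and 26 small-subunit genes.

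The ribosome of mitochondria translates the handful of membrane proteins encoded by mitochondrial DNA, all of them parts of the respiratory chain and ATP synthase. Its ribosomal RNAs come from mitochondrial DNA, while every one of its proteins is made in the cytosol from nuclear genes and imported. Some of these proteins descend from bacterial ribosomal proteins, and others were added during mitochondrial evolution and have no bacterial counterpart.

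The ferulic acid plus LPS group (4 libraries) received the plant phenolic acid ferulic acid at 10 µM for 12 h before LPS at 1 µg/mL for 24 h. LPS, the bacterial lipopolysaccharide sensed by Toll-like receptor 4, was given alone at the same dose and time to the LPS group (4 libraries). Untreated control cells gave the last 4 libraries, and none of the 12 libraries is of ferulic acid alone. All 12 libraries came from 1 immortalised line, and since nothing in the labels ties the 4 libraries of a group to separate cultures, the p-values measure library-to-library spread only, which may be technical.

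Library totals lay between 32548423 and 49961581 counts, of which 124018 to 230567 fell in the 78 genes. The 10 macrophage markers summed to 3210 to 3700 CPM in ferulic acid plus LPS, 3580 to 3910 CPM in LPS and 5790 to 6280 CPM in control libraries, where CPM is the count scaled to the TMM-adjusted library size. The macrophage markers did not move together, since 5 of the 10 were called higher and 5 lower in LPS against control. Their log2 fold changes ran from -3.01 to 3.15, and of all genes tested 35.6% were higher and 38.3% lower. Marker lists of other cell types summed to 6.35 CPM or less in every library. Those of fibroblasts (4 of 6 measured) summed to 3.02 to 6.35 CPM in ferulic acid plus LPS, 1.45 to 2.18 CPM in LPS and 0.0344 to 0.489 CPM in control libraries. Those of neutrophils (4 of 5) summed to 1.52 to 4.81 CPM in ferulic acid plus LPS, 2.5 to 3.26 CPM in LPS and 0.0376 to 0.186 CPM in control libraries. B cell markers (2 of 4) summed to 0.514 to 2.47 CPM in ferulic acid plus LPS, 0.932 to 2.16 CPM in LPS and 0.0746 to 0.358 CPM in control libraries, and those of T cells and epithelial cells to 0.488 CPM or less in every library. The part of these shifts in the results was not tested. The defining markers Cd3e, Epcam, Cdh1, Pdgfra and Mpo were not analysed here. Ferulic acid plus LPS libraries 1 and 4 stood apart from the other LPS-treated libraries on the second principal component, with scores of -44.0 and -76.6 against 25.6 and 7.56 for libraries 2 and 3 and 12.5 to 41.3 for the LPS libraries. That component held 6.81% of the variance. On the first, with 77.8%, ferulic acid plus LPS library 2 lay apart instead, at 51.6 against 66.4 to 88.3 for the other LPS-treated libraries. Which of these libraries represent the treatment better is not known. Results of that group are therefore also given without libraries 1 and 4, and the counts of genes also without libraries 2 and 3.

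The bases upstream of 4 genes are shown. Mrpl52 and Mrpl24 rose the most after LPS and Mrps21 fell the most relative to TMM, so these mark the ends of the range described below, and Mrpl32 is shown for its paired motif matches. Each line holds the 250 bases before the RefSeq start, 5′ to 3′ on the gene's strand, in build GRCm38.p6. Capitals mark matches to CCGGAAG, the core bound by ETS-family factors such as GABPA, or to GCGCANGCG, the site of the nuclear respiratory factor NRF1, on either strand. The lines are chr14:54426659-54426908 (plus strand) for Mrpl52, chr3:87919294-87919543 (plus strand) for Mrpl24, chr13:14613038-14613287 (minus strand) for Mrpl32 and chr3:95871515-95871764 (minus strand) for Mrps21.
Mrpl52: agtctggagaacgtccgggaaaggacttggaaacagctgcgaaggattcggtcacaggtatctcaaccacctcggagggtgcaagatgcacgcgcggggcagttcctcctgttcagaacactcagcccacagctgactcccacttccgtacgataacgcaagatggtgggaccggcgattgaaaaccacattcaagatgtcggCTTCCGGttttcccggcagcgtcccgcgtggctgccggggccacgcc
Mrpl24: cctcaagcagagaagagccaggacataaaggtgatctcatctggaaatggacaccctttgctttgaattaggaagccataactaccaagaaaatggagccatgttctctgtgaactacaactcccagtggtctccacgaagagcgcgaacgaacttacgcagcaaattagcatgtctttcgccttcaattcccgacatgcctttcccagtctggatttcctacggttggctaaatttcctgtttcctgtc
Mrpl32: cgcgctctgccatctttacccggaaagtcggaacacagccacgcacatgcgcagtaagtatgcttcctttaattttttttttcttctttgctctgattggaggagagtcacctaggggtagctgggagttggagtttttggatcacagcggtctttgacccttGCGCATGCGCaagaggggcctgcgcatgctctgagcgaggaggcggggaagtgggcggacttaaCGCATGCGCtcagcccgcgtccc
Mrps21: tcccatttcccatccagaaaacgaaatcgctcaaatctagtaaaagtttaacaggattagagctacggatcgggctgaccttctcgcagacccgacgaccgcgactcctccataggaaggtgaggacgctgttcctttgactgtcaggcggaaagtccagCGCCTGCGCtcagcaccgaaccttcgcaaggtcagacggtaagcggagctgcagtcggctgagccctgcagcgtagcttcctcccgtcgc

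In the Mrpl52 sequence the ETS core begins 47 bases before the start and reads on the opposite strand. The Mrpl32 sequence holds NRF1 matches 87, 86 and 23 bases before the start, the first pair overlapping on opposite strands, and Mrps21 holds 1 NRF1 match 90 bases before it. In the Mrpl24 window neither motif was matched, which says only that these letters are not there. RefSeq promoters of 300 bases, 250 before to 50 after the start, were found for 69 of the 78 members (75 promoters) and were set beside all 32851 promoters in the table. The NRF1 motif was in 21.3% of members' promoters and 6.25% of all promoters, and the ETS core in 34.7% and 8.86%. YY1, a zinc finger activator of mitochondrial genes, has a motif AAGATGGCG that was in 10.7% of members' promoters and 1.40% of all promoters. The GC box GGGCGG was in 52% and 35.7%, the CCAAT box in 40.0% and 37.4%, and the NF-kB motif, searched after values were seen, in 2.67% and 4.51%. The median GC content of members' promoters was 58.7%, against 52.7% for all promoters, and its part in these shares was not tested. Mrpl4, Mrpl13, Mrpl15, Mrpl19, Mrpl38, Mrpl54, Mrps28, Mrps34 and Mrps35 had no entry.

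The first comparison, LPS against control, asked how these genes stood after 24 h of LPS. Relative to the TMM baseline 59 of the 78 genes rose, 5 fell and 14 did not pass, whereas scaling by library size alone gave 24 higher and 28 lower, where 17.5% of all genes tested were higher and 59.0% lower. Mrpl52 rose by far the most, 37.6-fold, followed by Mrpl24 (5.72-fold) and Mrps16 (4.95-fold), and these 3 also rose with library size scaling. The genes that fell were Mrps21, Mrpl3, Mrps35, Mrps9 and Mrps6. They were also lower with library size scaling, but that scaling shifts every gene downward here, so this adds no support. Calls here and below are from the quasi-likelihood test of edgeR over all 14065 genes tested, at a Benjamini-Hochberg threshold of 0.05, and by it 35.6% of these genes were higher and 38.3% lower. In bulk RNA, fewer cells and less RNA per cell cannot be told apart.

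Over the 78 genes the log2 fold change had a median of 0.76, with 66 above 0, while the median of all genes tested was -0.10. With library size scaling these medians were -0.14 and -0.99. The distance between the members and the median gene was 0.86 and 0.85 under the 2 scalings, which shift all genes alike and so cannot move it. That distance was 0.75 with the length trend removed, 0.35 with limma on log2(FPKM + 1) and 1.10 without the filter on low counts. Of the 59 genes that rose relative to the TMM baseline, 24 rose, 26 did not pass and 9 fell with library size scaling. The same 24 genes were higher in all 25 settings run, Mrps21 was lower in all 25, and 14 genes were called in both directions depending on the setting. Libraries of the groups did not overlap for 60 genes above and 6 below control, where 35.5% of all genes tested lay above and 39.8% below. Without LPS library 2, or without LPS library 4, 3 genes fell in place of 5.

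With the TMM-adjusted library size as denominator, the members' share of reads averaged 0.533% ± 0.0362 in LPS and 0.25% ± 0.021 in control libraries (SD, n = 4 each). Their share of plain library totals, which follows library size scaling, moved less. It was 0.443%, 0.427%, 0.450% and 0.414% in the LPS libraries, against 0.357%, 0.411%, 0.387% and 0.362% in the control libraries, with no overlap between the groups. Their means were 0.434% ± 0.0162 in LPS and 0.379% ± 0.0249 in control (SD, n = 4 each). Mrpl52 made up part of that difference. Without it, a gene picked after its values were seen, the shares were 0.411% ± 0.0137 in LPS and 0.378% ± 0.0246 in control libraries and overlapped. Cytosolic ribosomal protein genes took 15.8% ± 0.929 of reads in LPS and 8.86% ± 1.08 in control libraries.

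**Figure D1:**
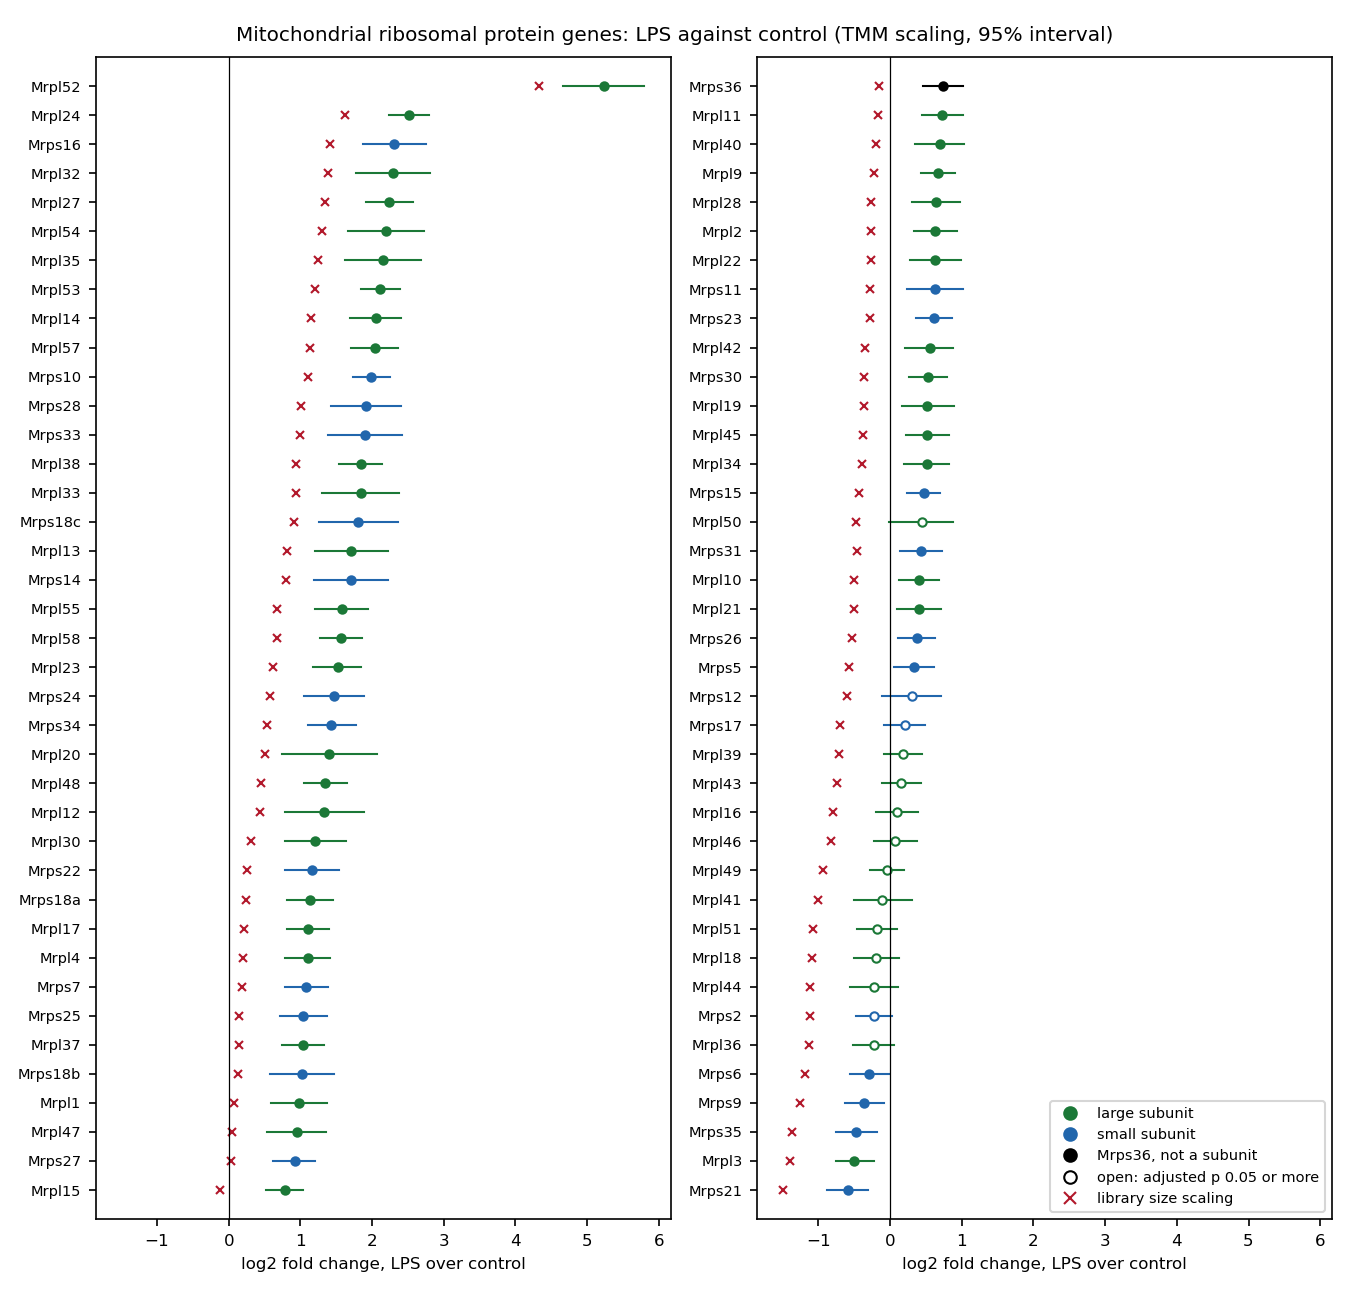
Log2 fold change of LPS over control for each of the 78 genes with TMM scaling (circles, with 95% intervals from edgeR) and with library size scaling (crosses), large-subunit genes in green and small-subunit genes in blue. With TMM 59 genes rose and 5 fell, with library size scaling 24 rose and 28 fell, and Mrpl52 stands far above the rest under both.

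Among large-subunit genes with bacterial homologues, 27 of 31 rose and 1 fell, with a median of 0.98 relative to TMM, and with library size scaling 9 rose and 7 fell with a median of 0.08. Mrpl24, whose bacterial counterpart starts assembly of the large subunit, had 291, 332, 337 and 295 CPM in LPS libraries, against 47.8, 63.6, 58.5 and 49.4 CPM in control libraries. The lowest LPS library was thus well above the highest control library, and the log2 fold change was 2.52 (SE 0.13, adjusted p = 6.36e-11). Mrpl32, whose protein is matured by the mitochondrial m-AAA protease, had 172, 174, 145 and 129 CPM with LPS and 28.4, 34.4, 34.9 and 28.6 CPM in control (log2 2.29, SE 0.24, adjusted p = 3.02e-07). Mrpl27, the counterpart of a bacterial protein near the peptidyl transferase centre, had 50.5, 52.8, 59.7 and 50.1 CPM with LPS and 10.9, 12.9, 11.3 and 9.82 CPM in control (log2 2.24, SE 0.16, adjusted p = 1.72e-09). Neither gene's groups overlapped, and all 3 rises were also called with library size scaling, at log2 1.62, 1.39 and 1.35.

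The stalk genes encode proteins at the site where translation factors dock, and they rose by unequal amounts relative to TMM. Mrpl12, the stalk protein that in human cells also binds the mitochondrial RNA polymerase, had 267, 248, 203 and 195 CPM with LPS and 78.7, 111, 99.4 and 73.1 CPM in control. Every LPS library was above every control library, and the gene rose by log2 1.33 (SE 0.26, adjusted p = 0.000231), though with library size scaling its 0.43 did not pass (adjusted p = 0.0841). Mrpl11 and Mrpl10, of the stalk base, rose by log2 0.73 (SE 0.13) and 0.40 (SE 0.13) relative to TMM but stood at -0.17 and -0.50 with library size scaling. Mrpl2, whose bacterial counterpart lies at the core of the large subunit, rose by 0.63 (SE 0.14) relative to TMM and stood at -0.27 with library size scaling, where it did not pass.

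Mrpl3, whose bacterial counterpart is another early assembly protein, was the 1 gene of that class called lower relative to TMM, where 28 of the 31 lay above 0. It had 51.5, 53.3, 62.6 and 47.9 CPM in LPS libraries, against 69.3, 83.4, 79.0 and 71.9 CPM in control libraries, and the highest LPS library was below the lowest control library. Its log2 fold change was -0.50 (SE 0.13, adjusted p = 0.00202), and it was 0.07 and no longer called (adjusted p = 0.675) once a trend of counts on gene length had been removed per library. In that fit 3 other genes of the class were called lower, where 32.9% of all genes tested were. With a trend on transcript GC content removed Mrpl3 stood at -0.12 (adjusted p = 0.310).

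Of the 20 large-subunit genes without bacterial homologues, 12 rose and 0 fell (edgeR, 12 at an unadjusted p under 0.05), with a median of 0.54 relative to TMM and -0.36 with library size scaling, where 7 were higher and 10 lower. Mrpl52 had 360, 283, 258 and 211 CPM in LPS libraries and 6.88, 8.61, 7.52 and 6.57 CPM in control libraries. As raw reads these were 9932, 8142, 10422 and 7701 with LPS and 400, 462, 547 and 349 in control, so even the lowest control value rests on 349 reads. The groups lie far apart, at a log2 fold change of 5.23 (SE 0.27, 95% interval 4.67 to 5.80, adjusted p = 3.56e-11) and 4.33 with library size scaling. Mrpl54 had 80.2, 72.8, 60.9 and 61.5 CPM with LPS and 12.7, 20.3, 15.8 and 11.3 CPM in control (log2 2.20, SE 0.25, adjusted p = 5.60e-07), again without overlap.

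Mmp14, a membrane metalloproteinase gene, is the next protein-coding gene downstream of Mrpl52 on the same strand. It had 28, 21, 44 and 36 reads in the LPS libraries and 0, 0, 2 and 0 reads in the control libraries, while Mrpl52 had 7701 or more reads in each LPS library. On the other side Slc7a7, an amino acid transporter gene, rose by log2 1.50 (SE 0.19).

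Other members of this class have functions beyond structure. Mrpl58, a peptidyl-tRNA hydrolase that releases stalled chains, rose by log2 1.57 (SE 0.14, adjusted p = 2.60e-08), with 42.4, 47.6, 48.0 and 49.0 CPM with LPS and 14.2, 16.1, 16.0 and 16.7 CPM in control, and 0.67 with library size scaling was also called. Mrpl45, which in human cells anchors the ribosome to the inner membrane, and Mrps30 rose by 0.52 (SE 0.14) and 0.53 (SE 0.12) relative to TMM but stood at -0.38 and -0.36 with library size scaling. Mrpl44, an RNase III-like protein, had 18.0, 17.7, 21 and 22.8 CPM with LPS and 22.6, 24.4, 22.3 and 23.5 CPM in control. Those ranges overlap, and the difference of -0.23 (95% interval -0.56 to 0.11, adjusted p = 0.206) did not pass, while with library size scaling it was -1.12 and called.

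Of the 17 small-subunit genes with bacterial homologues, 11 rose and 3 fell, with a median of 0.63 relative to TMM, and with library size scaling 6 rose and 8 fell with a median of -0.28. Mrps16 had 79.9, 70.7, 70.8 and 57.2 CPM in LPS libraries, against 11.8, 15.4, 16.0 and 12.9 CPM in control libraries, far above without overlap (log2 2.31, SE 0.21, adjusted p = 3.71e-08, and 1.41 with library size scaling). Mrps12, whose bacterial counterpart lies at the decoding site, had 11.2, 9.88, 10.3 and 8.11 CPM with LPS and 8.66, 9.62, 6.92 and 6.93 CPM in control. The ranges overlap and the difference of 0.30 (95% interval -0.12 to 0.71, adjusted p = 0.186) did not pass, and with library size scaling it was -0.60 and called lower.

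Mrps21 went the other way. It had 42.9, 30.7, 35 and 32.7 CPM in LPS libraries and 50.5, 58.5, 56.7 and 47.5 CPM in control libraries, so that every LPS library was below every control library. Its log2 fold change was -0.59 (SE 0.13, adjusted p = 0.000789) relative to TMM, -1.49 with library size scaling and -1.63 with the length trend removed. Mrps9, whose bacterial counterpart reaches the transfer RNA in the P site, had 48.4, 42.3, 52.4 and 45.5 CPM with LPS and 55.4, 62.1, 62.8 and 61.6 CPM in control (-0.36, SE 0.13, adjusted p = 0.0198). Leaving out LPS library 2 ended that call (adjusted p = 0.0686), and so did leaving out LPS library 4 (adjusted p = 0.0509). The value was 0.12 with the length trend and 0.07 with the GC trend removed.

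Mrps6 had 38.4, 39.2, 43.6 and 42.3 CPM with LPS and 48.7, 53.0, 49.5 and 49.0 CPM in control, without overlap (-0.29, SE 0.13, adjusted p = 0.0479). It lies just inside the threshold, and leaving out any 1 of the control or LPS libraries, or ferulic acid plus LPS library 1, ended the call (adjusted p of 0.0507 to 0.116). In an annotation of the earlier build GRCm38 this gene overlaps Slc5a3, a myo-inositol transporter gene on the same strand, whose own log2 fold change was -3.99 (SE 0.17). Reads in the overlap cannot be assigned with certainty.

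The family of Mrps18 proteins comprises 3 paralogues, descended from 1 bacterial protein, of which Mrps18a sits in the large and the other two in the small subunit. Mrps18c rose by log2 1.81 (SE 0.26, adjusted p = 8.80e-06), with 39.1, 42.2, 32.5 and 28.8 CPM with LPS and 8.25, 11, 12.0 and 9.15 CPM in control. Mrps18a rose by 1.14 (SE 0.15, adjusted p = 3.69e-06) and Mrps18b by 1.02 (SE 0.21, adjusted p = 0.000325). With library size scaling Mrps18c rose by 0.91 and the other two, at 0.24 and 0.13, did not pass.

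Of the 9 small-subunit genes without bacterial homologues, 8 rose and 1 fell, with a median of 0.92 relative to TMM, and with library size scaling 2 rose and 3 fell with a median of 0.03. Mrps27, a pentatricopeptide repeat protein, had 39.8, 40.5, 49.4 and 43.5 CPM with LPS and 22.1, 24.8, 25.2 and 19.5 CPM in control (log2 0.92, SE 0.14, adjusted p = 1.69e-05), and 0.03 with library size scaling did not pass. Mrps35 was the gene that fell, with 17.0, 15.6, 18.5 and 17.8 CPM with LPS and 26.4, 25.4, 20.2 and 23.6 CPM in control (-0.47, SE 0.14, adjusted p = 0.00553), but its value was 0.27 with the length trend removed (adjusted p = 0.0922) and -0.09 with the GC trend removed (adjusted p = 0.504). Mrps36, the 2-oxoglutarate dehydrogenase component, rose by 0.74 (SE 0.13) relative to TMM and stood at -0.16 with library size scaling.

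**Figure D2:**
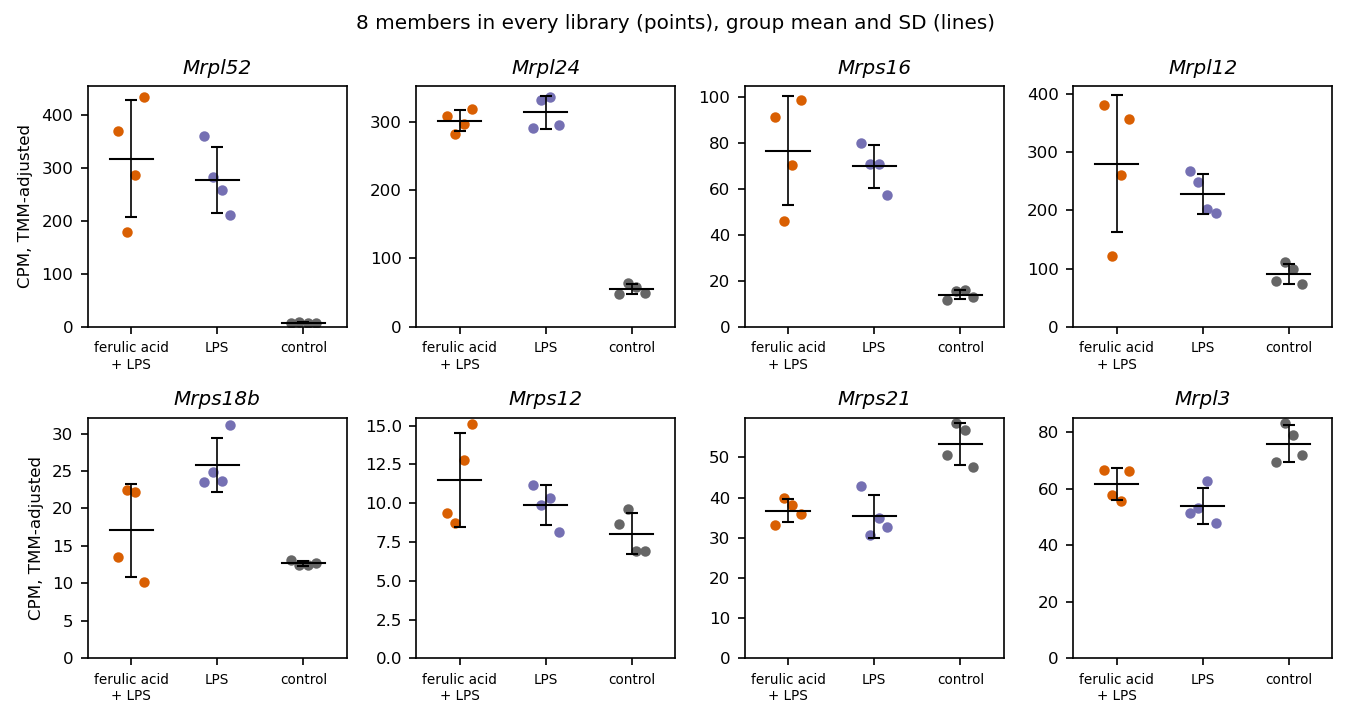
CPM (TMM-adjusted) of 8 members in each library, ferulic acid plus LPS left, LPS in the middle and control right, with group means and SD (n = 4). Mrpl52, Mrpl24 and Mrps16 separate LPS-treated from control libraries upward, and were called higher under both scalings. Mrps21 separates them downward. Mrps12, whose sign turns with library size scaling, overlaps.

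Levels between genes were compared as deposited FPKM, which is scaled by gene length and library total and thus follows library size scaling. In control libraries Mrps21 had the highest mean among the 78, 109 ± 8.57 FPKM, ahead of Mrpl12 (89.5 ± 15.7) and Mrpl2 (73.1 ± 6.88), and the lowest were Mrps25 (3.24 ± 0.251), Mrpl33 (4.13 ± 0.581) and Mrps35 (4.21 ± 0.504) (SD, n = 4). Neighbours among the highest 3 and among the lowest 3 lay within their combined SDs, except that Mrps25 lay below Mrpl33 by more than that. The gene lengths behind these FPKM were 739, 1532 and 1170 bases for Mrps21, Mrpl12 and Mrpl2. For Mrps25, Mrpl33 and Mrps35 they were 6576, 7326 and 8631 bases. Ranks between genes thus depend on the length used as divisor, and its part in them was not tested. In LPS libraries Mrpl52 came first at 203 ± 35.9 FPKM, against rank 60 and 10.1 ± 1.05 FPKM in control libraries. Mrps21 stood at rank 18 with 38.8 ± 4.66 FPKM in LPS libraries.

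In FPKM, which follows library totals, the spread among members widened while their middle stayed. Relative to TMM the middle rose instead, with a median log2 fold change of 0.76. The median member had 15.7 ± 0.613 FPKM in LPS and 16.1 ± 0.624 FPKM in control libraries, and the SD of log2 FPKM over the 78 genes was 1.27 in LPS libraries (1.21 to 1.32) and 1.06 in control libraries (1.02 to 1.08). The ratio of the highest to the lowest mean FPKM was 125 in LPS and 33.8 in control. The LPS ratio rests on Mrpl52 (203 FPKM), with Mrpl12 next at 121 FPKM. As a description over 78 genes, Spearman rho between mean FPKM in LPS and control was 0.693, and between log2 fold change and control FPKM it was -0.203.

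**Figure D3:**
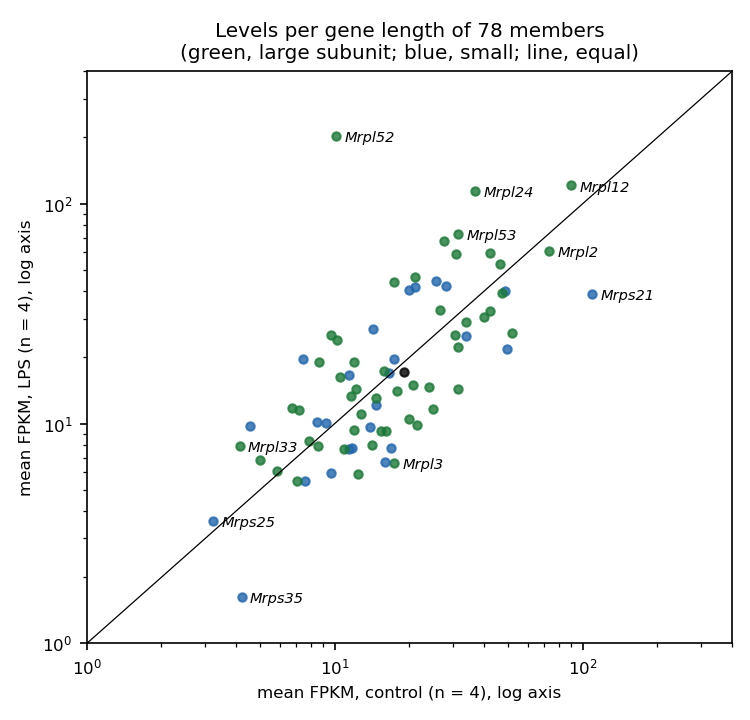
Mean FPKM of the 78 genes in LPS libraries (vertical, log axis) against control libraries (horizontal, log axis), n = 4 each, on the scale of library totals. Mrpl52 is first in LPS at 203 FPKM, against 10.1 FPKM in control, and Mrps21 stands at 38.8 FPKM in LPS, against 109 FPKM and first place in control.

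Gene length bears on these comparisons, since over all 14065 genes tested the LPS log2 fold change ran lower in longer genes (Spearman rho -0.349, genes not being independent). Over the 78 members that rho was -0.00757. Members over 3000 bases rose in 25 of 31 cases with a median of 0.98, where the median of all genes of that length was -0.48 and 26.2% of them rose. Members under 1500 bases rose in 14 of 20 cases with a median of 0.69, where all genes of that length had a median of 1.12 and 57.3% rose. With the length trend removed, 49 members rose and 12 fell, at a median of 0.79 against 0.04 for all genes. In that setting 36.8% of all genes tested rose and 32.9% fell. These values are relative to TMM.

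**Figure D4:**
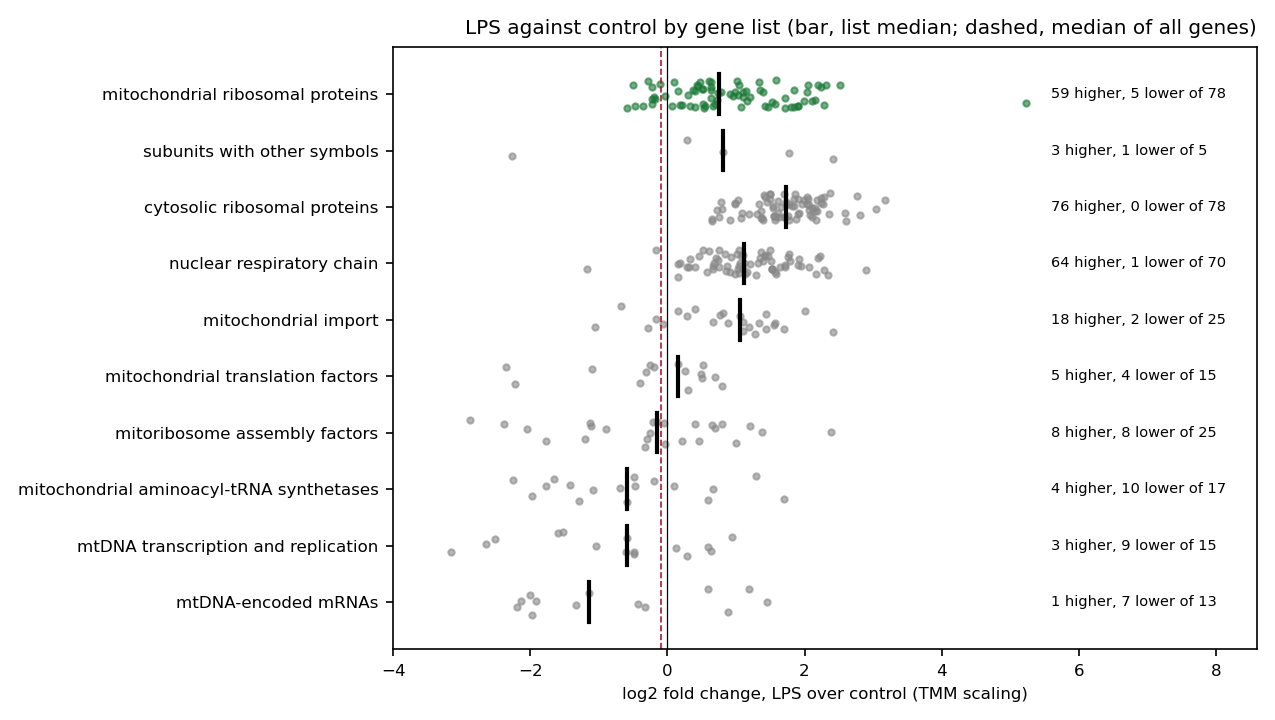
Log2 fold change of LPS over control relative to the TMM baseline for each tested gene of 10 lists (points), with list medians (bars) and the median of all genes tested (dashed). The 78 mitochondrial ribosomal protein genes (median 0.76) lie below the cytosolic ribosomal protein genes (1.73) and above mitochondrial aminoacyl-tRNA synthetases (-0.59), and with library size scaling these medians are -0.14, 0.83 and -1.48.

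Genes of the surrounding machinery were counted from lists chosen with earlier results of these data known. Of 5 ribosome subunits under other symbols, the small-subunit genes Chchd1 (log2 2.41, SE 0.32), Aurkaip1 (1.77, SE 0.20) and Dap3 (0.81, SE 0.16) rose relative to TMM, while Dap3 stood at -0.08 with library size scaling. Ptcd3, a pentatricopeptide repeat protein of the small subunit, fell. It had 5.51, 9.60, 9.02 and 8.31 CPM in LPS libraries and 40.8, 33.5, 38.0 and 42.7 CPM in control libraries, far apart (-2.26, SE 0.18, adjusted p = 1.12e-08). Gadd45gip1, of the large subunit, at 0.29 (SE 0.24, adjusted p = 0.285) did not pass and was -0.61 with library size scaling.

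Other ribosomal and respiratory genes were counted in the same fit. Cytosolic ribosomal protein genes rose in 76 of 78 cases and fell in 0 (edgeR, 76 at an unadjusted p under 0.05, median 1.73), led by Rpl30 (3.17, SE 0.71) and Rps27a (3.04, SE 0.34). Nuclear genes of the respiratory chain rose in 64 of 70 cases and fell in 1 (median 1.12), led by the complex III subunits Uqcrq (2.90, SE 0.18) and Uqcrb (2.34, SE 0.36). Of 25 mitochondrial import genes 18 rose and 2 fell (median 1.06), led by the intermembrane space chaperone gene Timm8b (2.41, SE 0.31) and the inner membrane translocase gene Timm17b (2.00, SE 0.18). With library size scaling these lists counted 64 higher and 0 lower, 29 higher and 11 lower, and 8 higher and 8 lower.

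Factors that build and serve the ribosome went both ways relative to TMM, while with library size scaling 0 or 1 of each list rose. Of all genes tested 35.6% were higher and 38.3% lower relative to TMM, and 17.5% and 59.0% with library size scaling. Relative to TMM the assembly factors (32% higher, 32% lower) and translation factors (33.3% and 26.7%) lay near these shares. Their mix is thus no trait of those lists. Of 25 assembly factors 8 rose and 8 fell (median -0.15, and 1 higher and 18 lower with library size scaling), with the rRNA methyltransferase Mrm2 at -2.88 (SE 0.61), or -4.23 without LPS library 4, and the GTPase Noa1 at -2.39 (SE 0.24). Of 15 translation factors 5 rose and 4 fell (median 0.15, and with library size scaling 0 higher and 11 lower with a median of -0.75), the largest falls being those of Lrpprc (-2.36, SE 0.15), which stabilises mitochondrial mRNAs, and of the release factor-like Mtrfr (-2.22, SE 0.28). Of 17 mitochondrial aminoacyl-tRNA synthetases 4 rose and 10 fell (median -0.59, and 1 higher and 13 lower with library size scaling), Mars2 by a log2 change of -2.25 (SE 0.26) and Pars2 by one of -1.98 (SE 0.29). Of 15 genes for transcription and replication of mitochondrial DNA 3 rose and 9 fell (median -0.59, and 0 higher and 12 lower with library size scaling), among them the helicase Twnk (-3.15, SE 0.21) and the nuclease Mgme1 (-2.65, SE 0.23).

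The RNAs of mitochondrial DNA differed in direction relative to TMM. The ribosomal RNAs mt-Rnr1 (1.66, SE 0.23) and mt-Rnr2 (0.84, SE 0.27) rose, though mt-Rnr2 stood at -0.07 with library size scaling. Of 13 mRNAs encoded by mitochondrial DNA, 1 rose and 7 fell (median -1.15, and -2.06 with library size scaling), mt-Nd4l by a log2 change of -2.19 (SE 0.54), or -1.36 without control library 1, and mt-Nd1 by one of -2.13 (SE 0.27). Per the labels' protocols mRNA was selected on oligo-dT beads, which capture these RNAs only in part.

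Of 9 tested regulators of mitochondrial biogenesis 4 rose and 4 fell relative to TMM, and 2 rose and 5 fell with library size scaling. These shares, 44.4% and 44.4%, then 22.2% and 55.6%, are not far from those of all genes given above. Myc and Esrra changed most. Myc had 10.6, 10.8, 9.98 and 12.6 CPM in LPS libraries and 0.241, 0.224, 0.179 and 0.113 CPM in control libraries (5.83, SE 0.24). Esrra, a nuclear receptor active on respiratory genes, had 190, 145, 120 and 130 CPM with LPS and 37.3, 37.5, 43.5 and 31.9 CPM in control (1.96, SE 0.18). Neither gene's groups overlapped. The factors of the motifs above went different ways relative to TMM. Nrf1 rose by 0.68 (SE 0.13) but stood at -0.21 with library size scaling. Gabpa (-1.01, SE 0.17) and Yy1 (-0.87, SE 0.17) fell, and library size scaling, which shifts every gene downward here, keeps such falls.

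Members with an ETS core in a promoter rose in 20 of 26 cases (median 1.07) and those without in 31 of 43 cases (median 0.64). With an NRF1 motif 12 of 16 rose (median 0.65), and without it 39 of 53 rose (median 0.73), all relative to TMM and as a description.

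Many members share their start region or their sequence with a neighbour. In the GRCm38 annotation, 18 of the 78 (23.1%) have another protein-coding gene that starts within 1000 bases on the opposite strand and reads away, against 10.9% of 13773 annotated genes tested. Of these 18 members 13 rose and 0 fell (median 0.80), while of their 17 tested partners 4 rose and 10 fell (median -0.65). With library size scaling 5 members rose and 7 fell, and 3 partners rose and 13 fell. Mrpl32 and the proteasome gene Psma2 (1.60, SE 0.20) both rose, as did Mrpl54 and Apba3 (2.18, SE 0.16). Mrpl49 did not pass (-0.04, SE 0.11) beside Fau (2.16, SE 0.18), a gene that encodes a cytosolic ribosomal protein. Mrps18b rose beside Ppp1r10, a phosphatase subunit gene, which fell (-3.39, SE 0.17), and Mrpl57 rose by 2.04 beside the kinetochore gene Ska3, which fell (-1.52, SE 0.25).

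Overlap in sequence limits some values. An annotated protein-coding gene on the opposite strand overlaps 23 of the 78 (29.5%, against 22.8% of the annotated genes tested), and one on the same strand overlaps 4. The strand setting of the counting is not stated, so reads of such pairs cannot be told apart. Mrpl24 overlaps Rrnad1, Mrpl27 overlaps Eme1 (-2.74, SE 0.37), and Mrpl43 overlaps Twnk, while Mrpl46 and Mrps11 overlap each other. Mrpl52, Mrps16, Mrpl32, Mrpl54 and Mrps21 overlap no protein-coding gene there. Overlaps with noncoding genes and pseudogenes were not counted, so their reads may still be shared. Rows named as pseudogenes of members hold from 77 reads for Mrps36-ps2 to 7268 reads for Mrpl48-ps over the 12 libraries, and members with such copies remain uncertain to that extent.

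The second comparison, ferulic acid plus LPS against LPS, was about the added ferulic acid pretreatment. In edgeR's quasi-likelihood test 0 of the 78 genes passed, where 0.0853% of all genes tested were higher and 0.199% lower. DESeq2 called 0 of the 78 as well, where it called 3.62% of all genes higher and 3.78% lower. At an unadjusted p under 0.05 edgeR gave 14 of the 78, where it gave 3236 of all 14065 genes tested. The smallest adjusted p among the 78 was 0.121. The median difference was 0.08 on the log2 scale, with 52 genes above 0, beside 0.02 for all genes tested. The members' share of reads was 0.493%, 0.426%, 0.461% and 0.490% in ferulic acid plus LPS libraries, against 0.443%, 0.427%, 0.450% and 0.414% in LPS libraries, and these ranges overlap.

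The ferulic acid plus LPS libraries differed among themselves. The median over members of log2 CPM minus the mean of the LPS libraries was 0.20, -0.17, 0.11 and 0.17 in libraries 1 to 4. Around these medians the members scattered with an SD of 0.43, 0.31, 0.13 and 0.53, against 0.13 to 0.14 in the LPS libraries. In library 4 members ran from -1.33 for Mrps18b to 1.26 for Mrpl13, and in library 1 from -0.92 for Mrps18b to 1.13 for Mrpl20. Cytosolic ribosomal protein genes took 21.3%, 13.4%, 17.1% and 21.3% of reads in the same 4 libraries and 14.5% to 16.6% in the LPS libraries, and the part of that shift in the members' values was not tested.

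**Figure D5:**
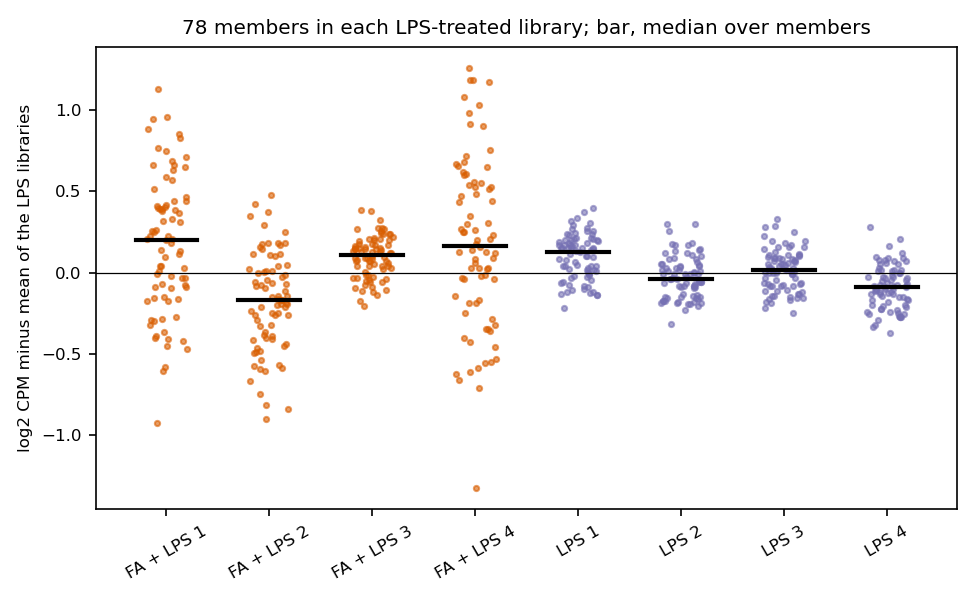
Log2 CPM (TMM-adjusted) of the 78 genes minus their mean over the LPS libraries, in each ferulic acid plus LPS library (left) and LPS library (right), with bars at the medians. Libraries 1 and 4 of ferulic acid plus LPS scatter most, with SDs of 0.43 and 0.53 over genes, and the 4 medians lie between -0.17 and 0.20.

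The count depended on those libraries. Without ferulic acid plus LPS library 2, 13 genes were higher and 1 lower, where 9.21% of all genes were higher and 9.22% lower. Without library 3, 3 members were higher and 3 lower, where 4.89% of all genes were higher and 4.87% lower. Without library 1 or without library 4 the edgeR count was 0. Without libraries 2 and 3 together 26 were higher and 13 lower, where 17.9% of all genes were higher and 19.8% lower. Without libraries 1 and 4 together 0 passed and the median was -0.02.

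The 4 members with the smallest p in each direction are given here. Mrpl13 had 223, 104, 126 and 275 CPM in ferulic acid plus LPS libraries, against 127, 125, 110 and 99.4 CPM in LPS libraries. Libraries 1 and 4 were high and libraries 2 and 3 lay near the LPS range, and the log2 difference was 0.66 (95% interval 0.16 to 1.15, adjusted p = 0.132), or -0.01 without libraries 1 and 4. Mrps33 likewise had 165, 68.5, 99.4 and 195 CPM after ferulic acid plus LPS and 98.7, 88.1, 85.2 and 72.3 CPM with LPS (0.62, 95% interval 0.11 to 1.12, adjusted p = 0.153), or -0.04 without libraries 1 and 4. Mrpl30 had 241, 122, 158 and 258 CPM after ferulic acid plus LPS and 135, 138, 135 and 115 CPM with LPS (0.57, 95% interval 0.16 to 0.99, adjusted p = 0.121), or 0.10 without those libraries. Mrpl21 stood at 0.42 (95% interval 0.11 to 0.73, adjusted p = 0.128), or 0.23 without those libraries. All 4 genes overlap between the groups.

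Members on the lower side were Mrps18b, Mrps18a, Mrpl2 and Mrps27. Mrps18b had 13.5, 22.5, 22.2 and 10.2 CPM in ferulic acid plus LPS libraries and 23.5, 24.9, 23.7 and 31.1 CPM in LPS libraries, without overlap (-0.59, 95% interval -1.03 to -0.15, adjusted p = 0.131), or -0.21 without libraries 1 and 4. Mrps18a had 43.5, 48.1, 63.4 and 39.8 CPM after ferulic acid plus LPS and 74.8, 58.7, 64.8 and 63.2 CPM with LPS (-0.42, 95% interval -0.74 to -0.11, adjusted p = 0.131), or -0.23 without those libraries. Mrpl2 at -0.38 (95% interval -0.67 to -0.08, adjusted p = 0.145) and Mrps27 at -0.31 (95% interval -0.60 to -0.01, adjusted p = 0.203) did not pass either, and stood at -0.25 and -0.16 without libraries 1 and 4. Among these 8 genes the intervals reach from -1.03 to 1.15, so the test does not show that the groups are alike.

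The third comparison set ferulic acid plus LPS against control, with the same control libraries as the first. It gave 59 genes higher and 7 lower, where 35.8% of all genes tested were higher and 37.5% lower, at a median of 0.87 against -0.07 for all genes. With library size scaling 27 were higher and 25 lower, where 18.0% of all genes were higher and 58.8% lower, and the median was -0.04. The lower count was 4 without control library 2, without control library 3 or without ferulic acid plus LPS library 1. Mrpl52 had 371, 179, 287 and 434 CPM in ferulic acid plus LPS libraries and 6.88, 8.61, 7.52 and 6.57 CPM in control libraries (log2 5.42, SE 0.27). Mrps21 had 33.2, 39.8, 38.2 and 35.8 CPM with ferulic acid plus LPS, against 50.5, 58.5, 56.7 and 47.5 CPM in control (-0.53, SE 0.13, adjusted p = 0.00181). Both genes again separated the groups fully. Mrpl44 (-0.47, SE 0.16, adjusted p = 0.0140) and Mrps2 (-0.28, SE 0.12, adjusted p = 0.0399), a small-subunit gene, were also lower here, beside Mrps6, Mrps35, Mrps9 and Mrpl3. In level per gene length, Mrpl52 came first among the 78 with 225 ± 56.1 FPKM and Mrps21 was at rank 18 with 40.7 ± 8.11 FPKM after ferulic acid and LPS (SD, n = 4 libraries).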

How the data were processed

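RNA of 12 libraries was sequenced, and 1 table of the series was used. The deposited counts are whole numbers of reads for each gene, per the file headers, without normalization. The FPKM values were deposited beside them, per the file headers, and equal the count per gene length and library total. The submitters' processing notes name build GRCm39 with HISAT2 2.2.1, fastp 0.23.4, edgeR 3.36.0, featureCounts 2.0.6 and DESeq2 1.34.0. Their roles, the annotation release and the strand setting are not given in the sources used here, and reads of overlapping or near-identical genes are uncertain. The lowest chi-square per gene between libraries of a group was 9.18, so the libraries differ by more than counting noise. Each was used as 1 replicate, though this does not show separate cultures.

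Counts were tested with edgeR 4.0.16 (R 4.3.3, quasi-likelihood F test, TMM scaling, filterByExpr, group only, all 12 libraries), with Benjamini-Hochberg adjustment over 14065 genes. The filter left out 11127 genes with 0.0421% of reads. SE is the log2 fold change over the square root of F. The procedure was checked on simulated counts in which few genes changed, equally up and down. That check does not cover the choice of scaling where many genes change. Alternatives were DESeq2 1.42.0, limma 3.58.1 on log2(FPKM + 1) and log2(FPKM + 0.1), other scalings and filters, a replicate block, per-library trends on length or GC removed, and each library left out. The GC trend was added after seeing the data. Neighbouring genes, GC content (GENCODE M21) and promoters (RefSeq) are of build GRCm38, and no coordinates were moved between builds.

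The members, gene lists and tests were chosen with earlier results of these data known. Named are the 6 members that rose most and the (at most 6) that fell most after LPS, the 4 with the smallest p in each direction for ferulic acid, the 3 highest and 3 lowest in control FPKM, 13 members set by name, the subunits under other symbols, and 2 genes per list. Neighbours, the remaining regulators (Nrf1, Gabpa, Yy1), Mrpl20, Mrpl22, Mrpl34, Mrpl43, Mrpl46, Mrpl49, Mrpl57, Mrps2 and Mrps11 were named after their values were seen.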

Additional observations from a re-analysis of the deposited data

Results flagged for a closer look

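A library far from the other 3 of its group was found for 6 of 171 groups of 4 examined, where chance gives about 1 in 20. In ferulic acid plus LPS library 2, Lrpprc was at 26.5 CPM (the others at 20.7 to 21.6) and Uqcrq at 514 CPM (791 to 827). In LPS library 4 Mrpl30 was at 115 CPM (135 to 138), and in LPS library 1 Mgme1 was at 3.08 CPM (1.86 to 1.88). In control library 1 Mrps9 was at 55.4 CPM (61.6 to 62.8) and mt-Nd4l at 7.37 CPM (1.57 to 1.96).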

How the results depend on the processing

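Scaling moved both comparisons with control, while for ferulic acid plus LPS against LPS the members called were 0 under both scalings. With library size scaling 24 members rose and 28 fell after LPS (median -0.14), and ferulic acid plus LPS gave 27 higher and 25 lower than control (median -0.04). With limma on log2(FPKM + 1) these were 24 and 29 (-0.13), and 27 and 28 (-0.05). Of all genes tested that fit called 18.0% higher and 60.7% lower after LPS. In ferulic acid plus LPS against control it called 18.3% higher and 61.1% lower. On log2(FPKM + 0.1) the member counts were 24 and 29 (-0.14), and 27 and 29 (-0.06). The shares of all genes there were 18.2% and 60.6%, and 18.4% and 61.1%. For LPS against control, single genes turned negative with library size scaling and the 2 limma fits, which gave -0.27, -0.26 and -0.26 for Mrpl2, -0.60, -0.54 and -0.59 for Mrps12, -0.17, -0.16 and -0.17 for Mrpl11, -0.50, -0.48 and -0.49 for Mrpl10, -0.38, -0.37 and -0.38 for Mrpl45, -0.36, -0.31 and -0.36 for Mrps30, -0.16, -0.15 and -0.15 for Mrps36, -0.08, -0.09 and -0.10 for Dap3, -0.61, -0.41 and -0.60 for Gadd45gip1, and -0.07, -0.08 and -0.08 for mt-Rnr2. The construction of these settings, with no TMM factor, sets that shift. With the length trend removed 12 members were lower after LPS, where 32.9% of all genes tested were. In ferulic acid plus LPS against control 11 members were lower, where 32.3% of all genes were. For LPS against control, Mrpl3 (0.07), Mrps35 (0.27), Mrps9 (0.12), Mrpl2 (-0.05), Mrps12 (-0.47) and Mrpl10 (-0.02) changed sign. So did Mrpl34 (-0.66), Mrpl46 (-0.48) and Mrpl43 (-0.35), which were then called lower, and Mrpl22 (-0.17), which was not called. With the GC trend removed 2 and 4 members were lower, where 36.8% and 36.2% of all genes were, and the LPS median was 0.95. Mrps9 (0.07) and Mrps12 (-0.04) were among the members that changed sign. The cause was not tested.

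Against control, ferulic acid plus LPS gave 4 lower members without the low-count filter, with only the 2 groups fitted, and without its libraries 1 and 4. Of all genes, 23.7%, 37.6% and 35.7% were lower in these settings. Against LPS it gave 3 members without the filter, all higher, where 1.71% of all genes were higher and 1.14% lower. Without libraries 2 and 3 it gave 39 members (26 higher, 13 lower), where 17.9% of all genes were higher and 19.8% lower. Without libraries 1 and 4 its median was -0.02, Mrpl13 was at -0.01 and Mrps33 at -0.04. With each library left out in turn, the LPS counts ran from 56 to 60 higher and 3 to 5 lower (median 0.71 to 0.83), ferulic acid plus LPS against control from 56 to 60 higher and 4 to 6 lower, and ferulic acid plus LPS against LPS from 0 to 14 called (0 to 13 higher, 0 to 3 lower). With reads outside the 50 most abundant genes as denominator the members' share was 0.800% in ferulic acid plus LPS, 0.735% in LPS and 0.507% in control.

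Equal replicate numbers did not pair libraries, with correlations of deviations from -0.20 to 0.08 over 12 pairs, and 1 of 12 libraries correlating best with its own number. With the replicate number as a block 58 members rose and 4 fell after LPS, where 34.2% of all genes rose and 37.2% fell. Ferulic acid plus LPS against control then gave 57 higher and 4 lower, where 34.0% of all genes were higher and 36.6% lower. For ferulic acid plus LPS against LPS 0 passed (edgeR, beside 14 at an unadjusted p under 0.05 without the block). Every member passed the filter on low counts, so depth limits little here.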
